A study of Mus musculus with 2 samples.

Results

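The genes examined were the segments of the T cell receptor loci in spleens of young adult male C57BL/6J mice taken 30 h after mice were given 300 mg/kg acetaminophen (APAP) or only the solvent, 0.9% NaCl (ctrl), into the peritoneum. Members were all rows of the deposited count table whose gene type was a V, D, J or C segment of a T cell receptor locus, without pseudogenes. These were 25 of 22791 genes, made up of 13 V, 5 J and 7 C segments and no D segment. All mice were wildtype and had been fasted overnight before the injection. Splenic RNA was pooled in equal shares within each group, from more mice for APAP than for ctrl, and each pool gave 1 library sequenced from the 3′ ends of mRNA. With 1 library a group there is no replicate check and no test of the treatment. Intervals given in brackets are 95% intervals of counting error and hold no variation between mice or preparations. The libraries held 2735788 counts (ctrl) and 2890947 counts (APAP). The pools differed in other tissue RNA as well, since 18 pancreas genes took 6.79% of all ctrl counts against 2.05% of those of APAP.

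A T cell recognises antigen with a receptor of 2 chains, α with β in most T cells and γ with δ in a minority. The chain genes are assembled in the thymus, where a V segment is joined to a J segment, in β and δ with a D segment between them. Splicing then attaches the rearranged V(D)J exon to the constant (C) gene, so that the 3′ end of every receptor mRNA lies in a C gene. The constant parts are shared by T cells of any specificity, and on the cell surface they sit in a complex with the CD3 chains, which carry the signal inward. The spleen is rich in αβ T cells, which fill the sheaths around its arterioles.

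The data collected from these loci followed that layout. Segments summed to 1329 ctrl counts and 1111 APAP counts, of which C genes took 97.8% (Wilson interval 96.9 to 98.5) and 97.7% (96.7 to 98.5). The annotation GENCODE M21 lists 226 such segments in total, and the 25 with a row in the table were 7 of 8 C, 5 of 70 J, 13 of 144 V and 0 of 4 D segments. A segment without a row was not analysed here. The libraries therefore report on the amount of receptor mRNA by chain and hardly on the V and J segments used.

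The 3′ ends of Trac, Trbc1 and Trbc2 are shown because nearly all counts of the loci rest on these genes. The sequences are the last 30 bases of the longest annotated transcript in GENCODE M21 on GRCm38 (mm10), with the polyadenylation hexamer (AATAAA or ATTAAA, searched on the transcript strand) in capitals. A hexamer of this kind occurs in the last 30 bases of 44.1% of all annotated protein-coding transcripts. The windows lie at chr14:54224177-54224206 for Trac, chr6:41539852-41539881 for Trbc1 and chr6:41548323-41548352 for Trbc2, all on the plus strand.
Trac: atcATTAAAggtgattcagaaaaaccaaaa
Trbc1: aaaccAATAAAcatgttctaggacggcctg
Trbc2: cagactaaatcAATAAAaacatggagttaa

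Trbc1 and Trbc2 are duplicated genes for the constant part of the β chain, and their similarity bears on how well their reads can be told apart. Exon 1 has 375 bases in both and differs at 1 position (C260A, Trbc1 base first, counted from the start of the exon). Exon 2 differs at 3 of 18 positions and exon 3 at 15 of 107. Exon 4, where the transcripts end, has 237 bases in Trbc1 and 192 in Trbc2, with 55.1% identity over aligned columns and no shared run longer than 8 bases. Reads from the 3′ end proper are thus distinct between both genes, whereas a read that lies wholly in exon 1 is mostly ambiguous. How such reads were treated in the counting is not given in the sources used here. Exon 3 is shown for both genes (chr6:41539229-41539335 and chr6:41547772-41547878, plus strand) with the differing positions in capitals.
Trbc1: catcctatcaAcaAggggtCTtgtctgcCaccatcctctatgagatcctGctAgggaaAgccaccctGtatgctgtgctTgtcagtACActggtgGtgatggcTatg
Trbc2: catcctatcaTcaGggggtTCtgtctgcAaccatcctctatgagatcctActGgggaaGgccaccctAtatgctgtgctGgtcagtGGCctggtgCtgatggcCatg

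The comparison asked whether receptor mRNA differs in the spleen between APAP-intoxicated and vehicle-treated mice. Constant genes of the α and β chains were lower in the APAP library. For Trac, the only α constant gene, 290 ctrl counts stood against 252 APAP counts (106 and 87.2 CPM, counts scaled to the library total), which after scaling gave an APAP to ctrl ratio of 0.782 (0.658 to 0.929). Trbc1 had 409 and 342 counts (149 and 118 CPM; ratio 0.753, 0.650 to 0.871). Trbc2 had 547 and 444 counts (200 and 154 CPM; ratio 0.731, 0.643 to 0.829). The 3 genes thus stood at about equal ratios, each with an interval below 1, and summed to 1246 and 1038 counts with a ratio of 0.750 (0.690 to 0.815). Fewer T cells, less receptor mRNA per T cell and a larger share of RNA from other cells cannot be told apart in RNA of whole spleen.

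**Figure D1:**
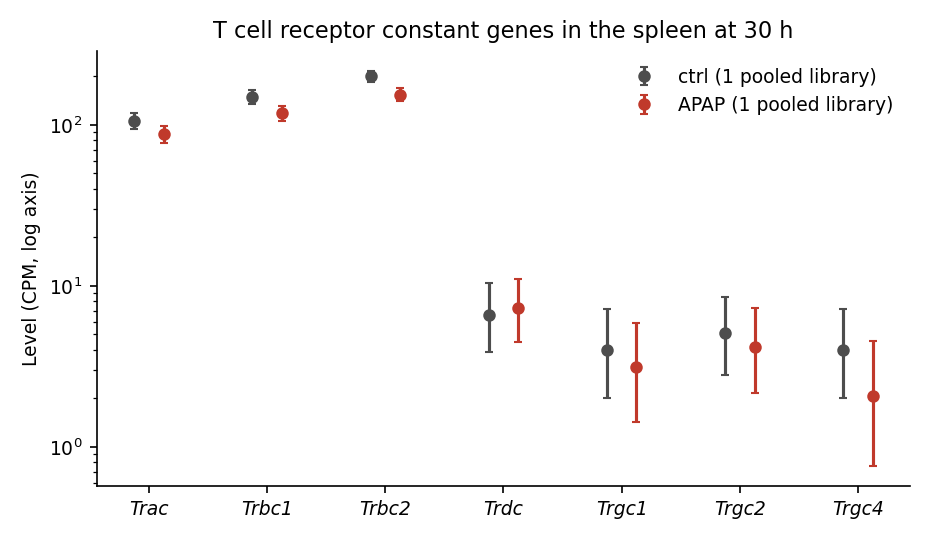
Level of each T cell receptor constant gene in CPM (log axis) in the ctrl library (dark grey) and the APAP library (red), with exact Poisson 95% intervals. Trac, Trbc1 and Trbc2 lie between 87.2 and 200 CPM with the APAP point below ctrl, and the γ and δ genes lie below 10 CPM with overlapping intervals.

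Constant genes of the γ and δ chains were far less abundant, with 19.7 CPM in ctrl against 455 CPM of the αβ genes, and no difference between the libraries was detectable at this depth. Trdc, the only δ constant gene, was counted 18 times for ctrl and 21 times for APAP (6.58 and 7.26 CPM; ratio 1.05, 0.533 to 2.09). Its exons overlap on the opposite strand with those of Trdv5 and Gm43434 in the annotation, and whether the counting used strand is not stated in the sources. Trgc1 had 11 and 9 counts (ratio 0.736, 0.270 to 1.95), Trgc2 14 and 12 (0.771, 0.326 to 1.80) and Trgc4 11 and 6 (0.491, 0.149 to 1.45). The 3 Trgc genes were all below 1, but each interval includes 1, as does that of their sum (36 and 27 counts; 0.675, 0.394 to 1.14). For γ and δ genes together the ratio was 0.800 (0.531 to 1.20), an interval that holds both the value of the αβ genes and 1.

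Against the table as a whole, 6 of the 25 members had at least 20 counts over both libraries, all of them C genes, and the other 19 were too rare for a ratio of use. Of the 6 genes, 5 had a ratio below 1, where 46.6% of the 12929 genes with at least 20 counts did. An interval wholly below 1 was seen in 3 of the 6 and in 6.57% of those genes, and an interval above 1 in 0 of the 6 and in 9.13%. These shares are not matched for counts. Intervals narrow with more counts, and Trbc2, Trbc1 and Trac ranked 672 to 1495 among all genes in ctrl. A size rule of at least 2-fold with an interval that excludes 1 was met by 0 of the 6 in either direction. It was met as lower by 1.68% and as higher by 1.39% of all genes with 20 counts. The median log2 ratio of the 6 was -0.39, against 0.02 for those genes. Among the members with 20 counts, depth resolved a difference for Trac, Trbc1 and Trbc2 only.

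**Figure D2:**
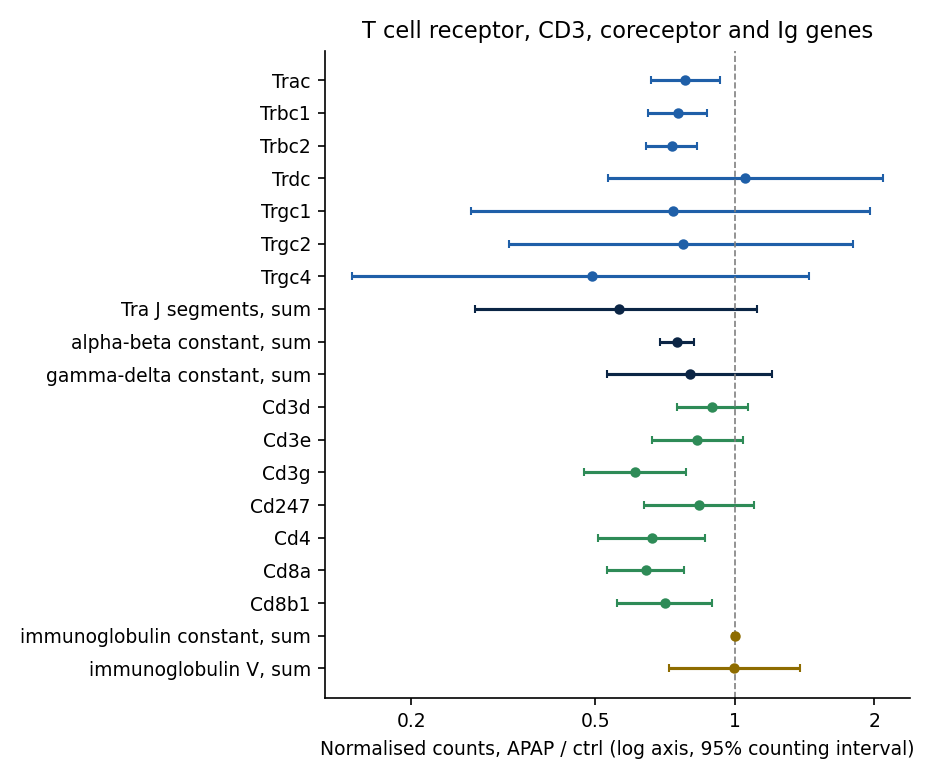
Ratio of normalised counts APAP over ctrl (log axis) with 95% counting intervals for single constant genes (blue), sums of segments (navy), CD3 chains and coreceptors (green) and immunoglobulin sums (brown), with the dashed line at 1. The αβ constant genes sum to 0.750, the CD3 and coreceptor genes all lie below 1, and the interval of the immunoglobulin constant genes runs from 0.989 to 1.01.

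Shares within a library need no scaling between the libraries, and those of the receptor chains were close to each other. The γδ constant genes took 4.15% of all constant counts in ctrl (54 of 1300, Wilson interval 3.20 to 5.38) and 4.42% in APAP (48 of 1086, 3.35 to 5.81). The odds ratio was 1.07 (0.701 to 1.62), so that a shift of the γδ share by up to about 1.62-fold is not excluded by counting error. Trac took 23.3% of the αβ constant counts in ctrl (21.0 to 25.7) and 24.3% in APAP (21.8 to 27.0). Trbc exceeded Trac 3.30-fold and 3.12-fold in counts, with a quotient between the libraries of 0.946 (0.776 to 1.15). Trbc1 took 42.8% of the Trbc counts in ctrl (39.7 to 45.9) and 43.5% in APAP (40.1 to 47.0; odds ratio 1.03, 0.847 to 1.25). Within the γδ genes, Trdc took 33.3% (22.2 to 46.6) and 43.8% (30.7 to 57.7), intervals that overlap widely. None of these odds ratios had an interval that excludes 1.

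**Figure D3:**
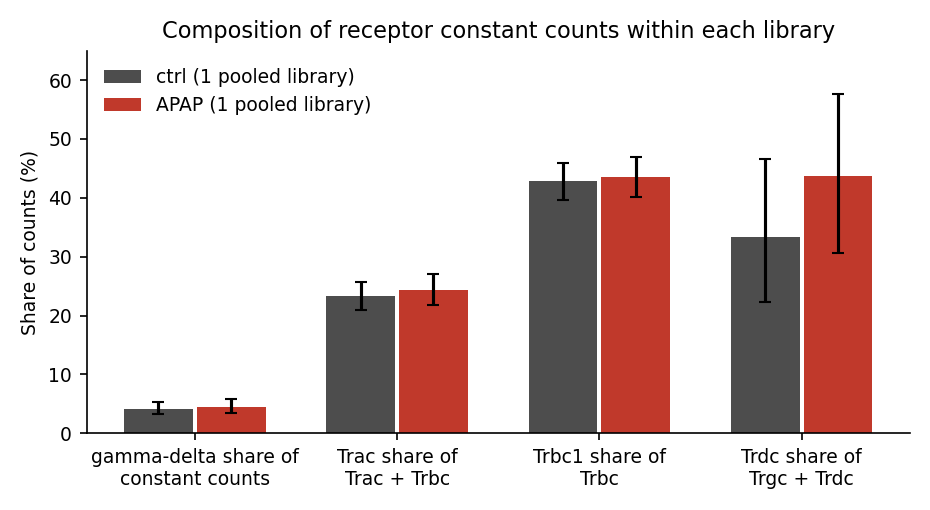
Share of counts in percent, within the ctrl library (dark grey bars) and within the APAP library (red bars), with Wilson 95% intervals. The γδ share was 4.15% and 4.42%, the Trac share 23.3% and 24.3%, the Trbc1 share 42.8% and 43.5% and the Trdc share 33.3% and 43.8%.

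Of the J segments, 3 of the α locus had more than 1 count, and they are shown because their counts lie upstream of Trac. In them the stretch that encodes the Phe-Gly-X-Gly motif of J regions is in capitals, defined as TTTGG followed after 4 bases by GG. It was searched on the coding strand and found in 4 of the 5 J members and in 62.9% of the 70 annotated J segments. The segments lie at chr14:54200777-54200842 (Traj18), chr14:54192303-54192361 (Traj27) and chr14:54168686-54168747 (Traj49) on the plus strand of mm10.
Traj18: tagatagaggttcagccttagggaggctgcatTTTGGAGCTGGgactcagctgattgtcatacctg
Traj27: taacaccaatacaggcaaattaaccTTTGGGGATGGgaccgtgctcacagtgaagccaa
Traj49: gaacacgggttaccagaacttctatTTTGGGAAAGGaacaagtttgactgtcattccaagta

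Traj18, the J segment of the invariant α chain of NKT cells, was counted 8 times for ctrl and 10 times for APAP (ratio 1.13, 0.400 to 3.28). Traj27 had 9 and 4 counts (0.400, 0.0900 to 1.43). Traj49 had 7 ctrl counts and none for APAP, where a count of 0 allows up to 3 counts or 1.04 CPM. Taken against that floor, with the ctrl count as observed, the level in ctrl was 2.59 times that in APAP, which leaves out the counting error of the ctrl library. Traj49 was the single member outside the C genes whose interval excluded 1, with an upper bound of 0.624 once the error of both counts is included. It has under 20 counts and was singled out after its values were seen. The other J members, Traj16 and Trbj1-7, had 0 and 1 count each. In the α locus the J segments summed to 24 and 15 counts (0.563, 0.274 to 1.12), an interval that holds the ratio of Trac and also 1. Without Traj18, the J segment with the most counts and a ratio above 1, the ratio of this sum was 0.281. No interval is given for that value.

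V segments carried 5 ctrl counts and 9 APAP counts. Of the 13 V members 12 had exactly 1 count, which can fall in only 1 library, and Trav7-3 had 0 and 2. Trbv3, with 0 and 1 count, was the only V member of the β locus, and the γ and δ loci had none. Of the 12 Trav members, 10 belonged to the families Trav6, Trav12 and Trav14, whose share of the 108 annotated Trav segments was not counted. The Trav cluster of this strain is repeated, and 7 names carry the d or n mark of a duplicated copy, so that single reads may be assigned to the wrong copy. The 5 Trav members with a count in ctrl lay 457 to 901 kb upstream of Trac and the 7 with a count in APAP 777 to 1425 kb. At 1 or 2 reads a segment, neither their number nor their position can be compared between the libraries. The summed Trav ratio of 1.44 had an interval of 0.415 to 5.59.

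**Figure D4:**
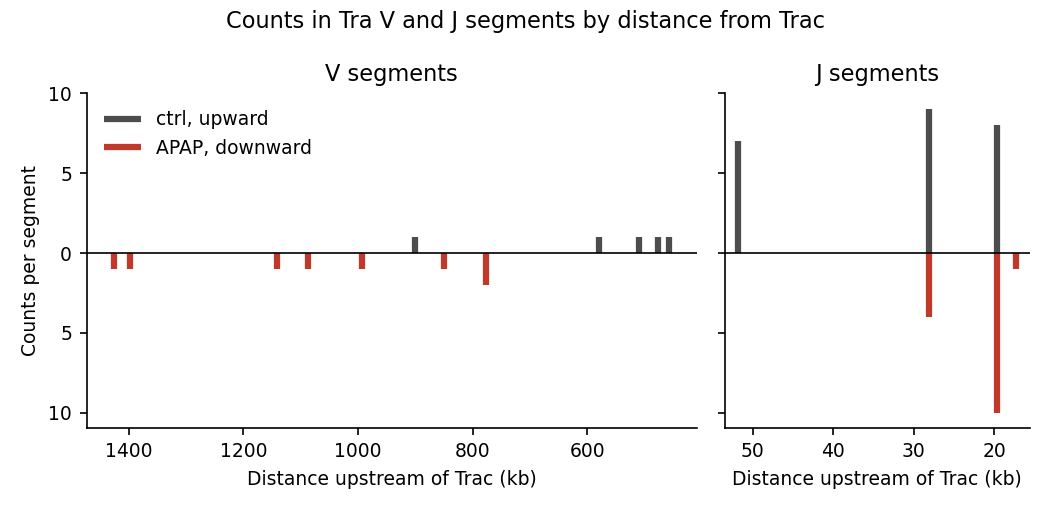
Counts per segment (vertical axis, ctrl upward in dark grey, APAP downward in red) against distance upstream of Trac in kb for Tra V segments (left) and Tra J segments (right, a different distance scale). V segments hold at most 2 counts each, while Traj49, Traj27 and Traj18 hold 7, 9 and 8 counts in ctrl and 0, 4 and 10 in APAP.

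Genes for the proteins that assemble with the receptor had ratios below 1, with the interval below 1 for Cd3g and the coreceptor genes. Of 7 genes for CD3 chains and coreceptors all had a ratio below 1, 4 had an interval below 1 and none met the size rule, with a median log2 ratio of -0.50. Of all genes with 20 counts, 46.6% had a ratio below 1, 6.57% an interval below 1 and 1.68% met the size rule as lower. Among the CD3 chains, Cd3g had 155 and 105 counts (0.610, 0.471 to 0.786). The intervals of Cd3d (258 and 256; 0.893, 0.748 to 1.07), Cd3e (166 and 153; 0.830, 0.662 to 1.04) and the ζ chain gene Cd247 (115 and 107; 0.837, 0.637 to 1.10) include 1. The coreceptor of helper T cells, Cd4, had 136 and 100 counts (0.662, 0.506 to 0.863). The chains of the coreceptor of cytotoxic T cells, Cd8a (262 and 187; 0.642, 0.530 to 0.778) and Cd8b1 (167 and 131; 0.706, 0.557 to 0.893), were lower to a similar degree. Cd4 took 34.2% of the sum of Cd4 and Cd8a in ctrl and 34.8% in APAP (odds ratio 1.03, 0.739 to 1.43). Receptor constant counts per CD3 count were 1.87 in ctrl and 1.75 in APAP, with a quotient of 0.934 (0.814 to 1.07).

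Of 24 genes of proximal signalling 19 had a ratio below 1, and 8 had an interval below 1 and none above, where 46.6%, 6.57% and 9.13% of all genes with 20 counts did. Scaled by library totals, with or without haemoglobin and immunoglobulin genes, 6 had an interval below 1 and 1 above. The shares of all genes under those scalings are not given here. With DESeq2 size factors the median log2 ratio of the 24 genes was -0.24. Those with the most counts were the phosphatase gene Ptprc (CD45; 1455 and 1354 counts; 0.838, 0.777 to 0.902), which all leukocytes express, the kinase gene Lck (321 and 267; 0.749, 0.634 to 0.883), Thy1 (288 and 273; 0.853, 0.720 to 1.01) and the exchange factor gene Vav1 (257 and 272; 0.953, 0.800 to 1.13). The size rule was met by Cd5 alone, an inhibitory receptor of T cells, at 0.474 (0.340 to 0.656). As lower, 1.68% of all genes with 20 counts met this rule. When haemoglobin and immunoglobulin genes were taken out of the library totals, no gene of this list met it. Across the table, 174 genes met the rule as lower with that scaling. Of 11 genes of T cell transcription and homing, 10 were below 1 and 7 had an interval below 1, against 46.6% and 6.57% of all genes with 20 counts, with a median of -0.29. With totals without haemoglobin and immunoglobulin genes 4 had such an interval, and the share of all genes under that scaling is not given here. Examples are the transcription factor gene Klf2 (776 and 653; 0.757, 0.681 to 0.842) and S1pr1, whose receptor guides T cells out of lymphoid tissue (376 and 341; 0.816, 0.703 to 0.948). Ets1 was near 1 (907 and 961; 0.954, 0.870 to 1.05). Of the 11 genes only Gata3, a factor of T cell development (46 and 23; 0.450, 0.260 to 0.758), met the size rule, beside the same 1.68%. Cd5 and Gata3 were singled out after their values were seen, as were Rag1, Dntt and Ptcra as thymocyte markers.

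Genes of γδ T cells and of receptor rearrangement gave little to compare. Of 8 genes chosen for γδ T cells only Sox13 (13 and 13 counts) and Maf (390 and 497) had 20 counts. Maf, a transcription factor gene that macrophages express too, had a ratio of 1.15 with an interval above 1 under DESeq2 size factors but not under TMM or upper-quartile factors. The median log2 ratio of both genes was 0.02, and -0.01 with TMM factors. The recombinase gene Rag1 had 0 and 2 counts, Dntt 5 and 4 and the pre-T receptor gene Ptcra 0 and 1, so that markers of thymocytes were at or near 0 in both libraries. The end-joining genes, which all cells use, had intervals that include 1, for example Xrcc6 (74 and 92; 1.12, 0.815 to 1.54), Xrcc5 (63 and 78; 1.11, 0.789 to 1.58), Prkdc (47 and 49; 0.938, 0.616 to 1.43) and Xrcc4 (36 and 30; 0.750, 0.446 to 1.25).

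Markers of other cells differed between the libraries as well, and their part in the result was not tested. NK and B cell markers were lower in APAP like the αβ constant genes, while neutrophil, red pulp macrophage and erythroid markers summed higher. The sum of 10 NK cell markers had a ratio of 0.677 (0.611 to 0.750) with all 10 below 1, and αβ constant counts per NK marker count had a quotient of 1.11 (0.970 to 1.26). The 8 B cell markers had a summed ratio of 0.837 (0.810 to 0.866) with all 8 below 1. Of all genes with 20 counts, 46.6% had a ratio below 1. Per B cell marker count, αβ constant counts had a quotient of 0.895 (0.818 to 0.979). The 6 neutrophil markers stood at 2.46 (2.37 to 2.55) and the 5 red pulp macrophage markers at 1.53 (1.47 to 1.59). Each of these genes had an interval above 1, where 9.13% of all genes with 20 counts did. The 6 erythroid markers, globin genes among them, summed to 1.11 (1.11 to 1.12), with 5 above 1 and 1 below. The 12 immunoglobulin C genes, the counterpart in B cells, summed to 56406 ctrl counts against 62691, with the interval of their ratio from 0.989 to 1.01. This sum was dominated by Igkc (23579 and 26000; 0.992, 0.975 to 1.01) and Ighm (18484 and 22087; 1.08, 1.05 to 1.10), and its members went both ways. Ighg2c (1946 and 968; 0.448, 0.414 to 0.484), Ighg2b (1009 and 828; 0.739, 0.673 to 0.810) and Ighd (1946 and 1806; 0.835, 0.783 to 0.891) had intervals below 1. Igha (2668 and 3564; 1.20, 1.14 to 1.26) had one above, and these 6 genes were singled out after their values were seen. Relative to the sum, αβ constant counts were lower in APAP with a quotient of 0.750 (0.689 to 0.815). The 29 immunoglobulin V segments summed to 75 and 83 counts (0.996, 0.720 to 1.38). Scaled by library totals, the ratio of the αβ constant genes was 0.788 (0.725 to 0.857). With totals that leave out the pancreas genes it was 0.750 (0.690 to 0.815).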

How the data were processed

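RNA was isolated with trizol, digested with DNase I and made into libraries with the MACE-kit v.2. The authors removed duplicate reads by molecular identifiers, trimmed with cutadapt, clipped poly(A), mapped to mm10 and quantified with HTSeq. No source used here gives versions, aligner or annotation. The raw counts deposited by the authors were used throughout. Values headed TPM by the authors equal CPM of these counts, a further deposited signal equals the count over a size factor, and a score column deposited by the authors is the mean of both counts. These were not used.

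Ratios were scaled with DESeq2 1.42.0 size factors (R 4.3.3; 0.949 for ctrl, 1.05 for APAP). Intervals derive from Clopper-Pearson shares and exact conditional odds ratios (scipy 1.17.1), Wilson intervals serve single shares, and all cover counting error only. A count of 0 allows 3 counts (1.10 CPM in ctrl, 1.04 in APAP). No p-value is given. Coordinates and sequences come from GENCODE M21 on the same build, in which all 25 members were found by identifier. The γ constant genes are named there Tcrg-C1, Tcrg-C2 and Tcrg-C4. A total of 2 pseudogene rows with 0 counts in ctrl and 2 in APAP were left out. Named genes were every C gene; in each locus and class the segments with at least 20 counts (at most 8) or else the 2 with the most counts; segments that met the size rule; the CD3 and coreceptor list; and up to 4 members with the most counts of each other list. One gene that this rule names is not reported here. Members and lists were chosen with earlier results of these data known. Alternatives were other scalings (library totals, TMM with edgeR 4.0.16, upper quartile, totals without haemoglobin and immunoglobulin or pancreas genes), other minimum counts and folds, and other sets of genes. The rules were tested on simulated Poisson counts with planted differences. These hold counting error only and no variation between mice or preparations.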

Additional observations from a re-analysis of the deposited data

How the results depend on the processing

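RNA of several mice was pooled into 1 library a group, so variation between mice was not measured. No paired analysis was possible because there was a single pooled library for ctrl and for APAP. Of the alternative values, 181 stayed within the counting error of the reported value, or within 1.5 times a count, and 10 moved further. Some of the 181 could not move, such as C and J sums when the pseudogenes, both of Trav, were added. Others had wide counting error, such as the α J sum, which is among the 181 at 0.281 without Traj18. Among the 181, the median of the γδ T cell list changed sign to -0.01 with TMM and to -0.0047 with upper-quartile factors, and the quotient of constant counts per CD3 count passed 1 (1.01) when the coreceptors were included. The ratio of the αβ constant genes lay between 0.735 (TMM) and 0.797 (totals lacking haemoglobin and immunoglobulin genes). Under each of the 6 scalings the intervals of Trac, Trbc1 and Trbc2 stayed below 1, with the highest upper bound at 0.988 for Trac.

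The median log2 ratio of proximal signalling genes (-0.24) moved to -0.17 when scaled by library totals and to -0.16 when haemoglobin and immunoglobulin genes were left out of these. That of transcription and homing genes (-0.29) moved to -0.22 and -0.20. Across the table, 180 genes were higher and 217 lower by the size rule. Raising the minimum to 50 counts left 67 higher and 114 lower. A limit of 1.5-fold gave 475 higher and 398 lower, while 3-fold gave 49 higher and 101 lower. In ctrl 15 segments had a count and in APAP 19, where 20436 and 20689 of all genes did. With APAP rarefied to the ctrl total, 18.5 instead of 19 segments were expected with a count. The share of Trbc1 could not be replaced by Trbj segments, since only Trbj1-7 had a count.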
